A study of Mus musculus with 4 samples.

Results

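Glycolysis and the cellular response to low oxygen were followed through 35 genes, from the glucose transporters to the targets of the hypoxia-inducible factors, in mouse embryonic stem cells (mESCs) that lack telomerase RNA. They were chosen by name, and each name was matched exactly to the gene symbols of the files, which found all 35, on 36 of the 53379 gene rows (*Aldoa* has 2 rows). The cells were those of DKO741, a *Terc*-/- line made from E14 mESCs in which the construct TR-10 had replaced both copies of the telomerase RNA gene, so that both groups carry the knock-out and no *Terc*+/+ cells were analysed here. PD100 cells (population doubling 100, before alternative lengthening of telomeres, ALT) and PD800 cells (population doubling 800, after ALT had been established) were each sequenced as 2 libraries, which the study calls biological duplicates. The labels speak of passages at the same numbers. DKO741 is 1 line, in which ALT survivors arose with low frequency, and its stocks were grown on fibroblast feeders while RNA was taken from feeder-free cultures.

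Glycolysis turns glucose into pyruvate, and lactate dehydrogenase then converts pyruvate to lactate or back, while pyruvate that a carrier takes into the mitochondria can be turned into acetyl-CoA by the pyruvate dehydrogenase complex of the matrix. When oxygen is scarce, the alpha subunits of hypoxia-inducible factor (HIF), which prolyl hydroxylases and the von Hippel-Lindau protein otherwise mark for degradation, pair with ARNT and raise the transcription of most glycolytic enzymes and of genes for mitophagy and pH control. Mouse embryonic stem cells are known for a high glycolytic rate even with oxygen present, and many enzymes have several isozymes whose proportions differ between cell states.

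The expected counts, which are the read pairs that RSEM assigned to each gene after dividing pairs that align to several genes, summed to between 32454121 and 38492149 per library. CPM values are counts divided by library totals that TMM factors adjust, and a level of 3 counts, treated as the limit of detection and covering counting error only, was 0.0743 to 0.0933 CPM. *Terc* itself was at 1 count in a single PD100 library (replicate 1) and at 0 counts elsewhere. Of 12 embryonic stem cell markers, all 12 were tested, 6 were higher in PD800 cells and none lower. Of all genes tested, 13.1% were higher and 15.4% lower. The summed level of the 12 markers was 1611 and 1912 TPM in PD100 cells against 2267 and 2306 TPM in PD800 cells, with *Dppa5a* the highest (682 and 1068 TPM against 1051 and 1156 TPM). TPM (transcript abundance with a fixed total in each library) is scaled for gene length and is the scale used here to compare genes with each other. Mitochondrial and small RNAs took 22.0% to 23.4% of PD100 counts and 27.7% to 28.3% of PD800 counts, which leaves less of the fixed TPM total to other genes in PD800 cells, and the median change over all genes was 0.01 (log2) on TMM-scaled counts but -0.21 on log2(TPM + 0.1). With 2 libraries in each group, an exact permutation test of a single gene cannot give a p below 0.333, so none was used. Unless another test or setting is named, each p is an adjusted p of the quasi-likelihood test of edgeR. It is adjusted by the Benjamini-Hochberg method over 19148 genes. A gene passed at an adjusted p under 0.01, and was called where the change was also over 2-fold.

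All 35 genes were tested, and the list moved in both directions. In PD800 cells 11 genes were higher, which is 31.4% of the list against 13.1% of all genes tested, and 8 were lower, which is 22.9% against 15.4% of all genes tested. The other 16 did not pass. Only 3 were called higher (*Slc2a3*, *Pgk1* and *Ldhb*; 8.57% against 6.28% of all genes tested) and 2 called lower (*Aldoc* and *Epas1*; 5.71% against 8.81% of all genes tested), which is near the share of all genes. The median log2 fold change of the list was 0.18, beside 0.01 for all genes tested. The CPM values of the groups did not overlap for 33 of the 35 genes, all but *Pdk3* and *Car9*, against 73.8% of all genes tested. Among the glycolytic enzymes and transporters most of the genes that passed were higher, while 3 of the 5 genes for HIF factors and their control were lower. Of the 19 genes that passed, 8 passed under every alternative that was run (*Slc2a3*, *Aldoa*, *Pgk1*, *Ldhb*, *Bnip3*, *Aldoc*, *Epas1* and *Mxi1*). Without PD800 replicate 1, and likewise without PD800 replicate 2, 10 of the 19 no longer passed (*Slc2a1*, *Slc16a1*, *Gpi1*, *Pfkm*, *Pfkfb3*, *Tpi1*, *Gapdh*, *Eno2*, *Egln3* and *Ndrg1*), leaving 6 higher and 3 lower. Leaving out a PD100 library added genes on both sides. Without PD100 replicate 2, *Hk2*, *Pfkl*, *Eno1*, *Pkm*, *Ldha* and *Vhl* were added as higher. Without PD100 replicate 1, *Pgam1* and *Ankrd37* were added as lower and *Pfkl* as higher. With limma on TPM 5 passed higher (*Slc2a3*, *Aldoa*, *Pgk1*, *Ldhb* and *Bnip3*).

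**Figure D1:**
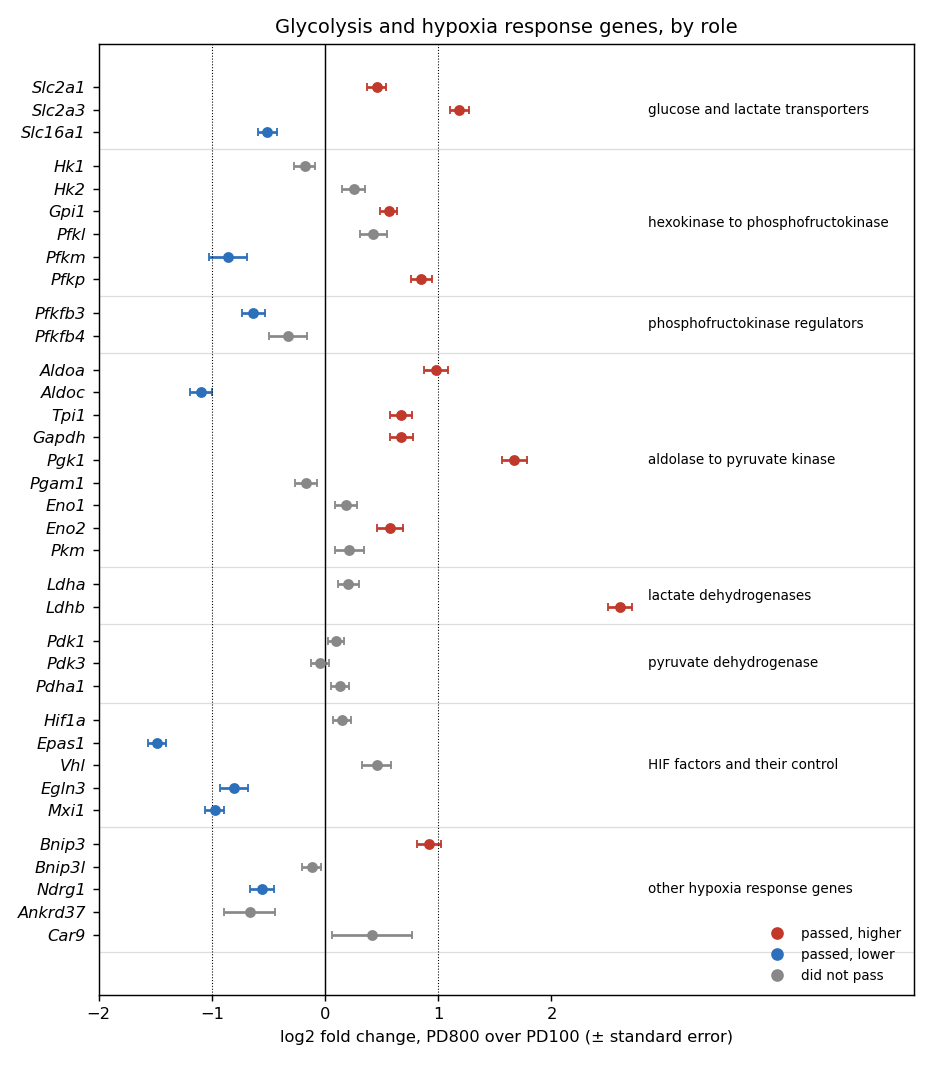
Log2 fold change (PD800 over PD100) of each of the 35 genes, grouped by role on the vertical axis, with bars for the standard error from edgeR and dotted lines at 2-fold. *Ldhb* (2.61) and *Pgk1* (1.67) lie farthest to the right and *Epas1* (-1.49) and *Aldoc* (-1.10) farthest to the left, while *Pdk1*, *Pdk3* and *Pdha1* of the pyruvate dehydrogenase group lie near 0.

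HIF is known to act at elements with the core ACGTG or GCGTG, and the promoters of these genes were searched for these letters. Sequence outside the promoter windows was not searched. RefSeq promoters (GRCm38.p6, 250 bases before to 50 bases after the start) were found for 31 of the 35 genes, with 46 promoters in all, and the other 4 genes (*Slc2a3*, *Epas1*, *Bnip3l* and *Ndrg1*) had no entry in the table used. ACGTG on either strand was in 24 of the 46 promoters (52.2%), against 24.3% of the promoters of genes tested and 19.6% of all promoters in the table. ACGTG or GCGTG was in 36 of the 46 (78.3%), against 59.3% and 43.8% in the same sets. By gene, 5 of the 10 genes with a promoter that passed higher had ACGTG, as did 6 of the 6 that passed lower and 9 of the 15 that did not pass, so that the letters were found among genes that moved either way. The median number of CG dinucleotides was 20.5 in the members' promoters and 19.0 in those of genes tested. The 250 bases before the start are given for the genes on which the contrasts below turn, 3 that were higher (*Pgk1*, *Bnip3* and *Ldhb*), the partner of *Ldhb* that did not pass (*Ldha*) and 1 that was lower (*Egln3*). They run 5′ to 3′ on the gene's strand, and capitals mark ACGTG and GCGTG on either strand, so that CACGT and CACGC are matches on the opposite strand and CACGTG holds both strands of 1 site.
Pgk1, chrX:106186850-106187099, plus strand: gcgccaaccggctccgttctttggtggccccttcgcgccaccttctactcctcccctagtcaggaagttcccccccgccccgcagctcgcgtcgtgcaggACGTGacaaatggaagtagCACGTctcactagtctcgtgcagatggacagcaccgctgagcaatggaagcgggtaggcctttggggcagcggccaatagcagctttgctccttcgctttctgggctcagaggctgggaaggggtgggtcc
Bnip3, chr7:138909507-138909756, minus strand: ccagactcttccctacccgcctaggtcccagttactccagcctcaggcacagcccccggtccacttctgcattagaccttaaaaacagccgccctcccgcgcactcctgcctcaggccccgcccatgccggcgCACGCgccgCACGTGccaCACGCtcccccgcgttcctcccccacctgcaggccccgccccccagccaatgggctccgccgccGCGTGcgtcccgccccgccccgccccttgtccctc
Ldhb, chr6:142507958-142508207, minus strand: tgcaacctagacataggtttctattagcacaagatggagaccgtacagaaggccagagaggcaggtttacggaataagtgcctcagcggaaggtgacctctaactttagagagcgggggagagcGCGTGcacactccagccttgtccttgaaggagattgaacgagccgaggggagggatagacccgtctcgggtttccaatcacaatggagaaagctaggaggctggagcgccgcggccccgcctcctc
Ldha, chr7:46845554-46845803, plus strand: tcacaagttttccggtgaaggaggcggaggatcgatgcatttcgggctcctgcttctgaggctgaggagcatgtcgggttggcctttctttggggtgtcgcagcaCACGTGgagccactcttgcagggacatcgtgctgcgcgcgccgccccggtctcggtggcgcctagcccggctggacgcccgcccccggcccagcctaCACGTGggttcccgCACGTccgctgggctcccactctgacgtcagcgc
Egln3, chr12:54203875-54204124, minus strand: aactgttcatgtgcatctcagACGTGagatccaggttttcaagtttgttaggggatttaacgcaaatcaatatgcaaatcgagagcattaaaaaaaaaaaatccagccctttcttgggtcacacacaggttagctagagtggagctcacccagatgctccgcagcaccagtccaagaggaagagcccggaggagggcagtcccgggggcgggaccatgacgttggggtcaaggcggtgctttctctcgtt
*Pgk1* holds ACGTG once on each strand, *Bnip3* holds CACGTG among 3 further matches to GCGTG, and *Ldhb*, the gene with the largest rise of the list, holds a single GCGTG. The *Ldha* window holds CACGTG at 2 places and 1 further match, and *Ldha* did not pass, although a further RefSeq start of *Ldha* has a window without ACGTG. A match is a description of letters and was not tested as a site.

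Glucose enters through SLC2A1 and SLC2A3 (also called GLUT1 and GLUT3), and both genes passed with higher levels, *Slc2a3* under every alternative and *Slc2a1* not. *Slc2a3*, the high-affinity transporter (chromosome 6 of GRCm38, 122727809 to 122801640, minus strand), had expected counts of 28908 and 23163 at PD100 against 58157 and 51128 at PD800. Both PD800 libraries lay above both PD100 libraries, which is 2.28-fold (log2 fold change 1.19, standard error 0.08, adjusted p = 0.000203). *Slc2a1* had 11743 and 10497 counts against 14666 and 13579, which is 1.37-fold (log2 fold change 0.46, standard error 0.08, adjusted p = 0.00636). It did not pass on log2(TPM + 1) (0.23, adjusted p = 0.113 from limma) or without PD800 replicate 1 or 2 (adjusted p = 0.0754 and 0.0959). *Slc16a1*, the monocarboxylate carrier MCT1 that moves lactate across the plasma membrane, fell by 0.51 on the log2 scale, from 5889 and 5419 counts to 3854 and 3513 (adjusted p = 0.00418).

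Among the first enzymes, the hexokinases, which trap glucose as its phosphate, did not pass. *Hk2*, the main hexokinase of these cells by TPM (42.3 to 47.6 TPM in the 4 libraries), had a log2 fold change of 0.25 (adjusted p = 0.0825), and *Hk1* (4.77 to 6.79 TPM) had -0.18 (adjusted p = 0.172). *Gpi1*, which isomerises glucose 6-phosphate, rose from 9419 and 7511 counts to 12330 and 10760 (log2 fold change 0.56, standard error 0.08, adjusted p = 0.00197). It did not pass with limma on either TPM scale. Phosphofructokinase, the main control point of the pathway, has liver, muscle and platelet isozymes, and these moved apart. *Pfkp*, the platelet type, rose from 4815 and 4565 counts to 8103 and 7586 (log2 fold change 0.85, standard error 0.09, adjusted p = 0.000924). *Pfkp* did not pass with limma on either TPM scale. *Pfkm*, the muscle type, fell from 1581 and 1869 counts to 919 and 866 (log2 fold change -0.86, standard error 0.17, adjusted p = 0.00879). *Pfkl*, the liver type and the most abundant by TPM (7811 and 7894 counts against 9924 and 9707), had a log2 fold change of 0.43 and an adjusted p of 0.0276, but passed with DESeq2 (adjusted p = 0.00392), with no filter (adjusted p = 6.86e-05) and without PD100 replicate 1 or 2 (adjusted p = 0.00726 and 7.80e-05). *Pfkfb3*, whose enzyme makes the fructose 2,6-bisphosphate that activates phosphofructokinase, fell from 508 and 438 counts to 309 and 256 (log2 fold change -0.63, standard error 0.10, adjusted p = 0.0035). Its paralogue *Pfkfb4* had 181 and 123 counts against 114 and 108 (log2 fold change -0.33, adjusted p = 0.171).

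From aldolase to pyruvate kinase, 5 of the 9 genes were higher (55.6%, against 13.1% of all genes tested). Of the others, 1 was lower (11.1%, against 15.4% of all genes tested) and 3 did not pass. *Pgk1*, phosphoglycerate kinase, which makes the first ATP of the pathway (chromosome X, 106187100 to 106203699, plus strand), had 20236 and 19560 counts at PD100 against 60213 and 57601 at PD800. The groups lay far apart, at 543 ± 59.9 CPM against 1733 ± 83.0 CPM (SD, n = 2), a 3.19-fold rise (log2 fold change 1.67, standard error 0.11, adjusted p = 0.00017). *Aldoa*, the main aldolase, which splits fructose 1,6-bisphosphate, rose from 28960 and 28076 counts to 54029 and 50443 (log2 fold change 0.98, standard error 0.11, adjusted p = 0.000925). A second, small row of *Aldoa* had 20 and 30 counts against 42 and 28 and did not pass. *Tpi1*, triosephosphate isomerase, rose from 11479 and 10877 counts to 17057 and 16060 (log2 fold change 0.68, standard error 0.10, adjusted p = 0.00262). *Gapdh*, which reduces NAD and is often used as a reference gene, rose from 1849 ± 156 CPM to 2950 ± 106 CPM (SD, n = 2, log2 fold change 0.67, standard error 0.10, adjusted p = 0.00294). Neither *Tpi1* nor *Gapdh* passed with limma on either TPM scale. *Eno2*, the neuronal enolase, was rare at 2.31 to 3.82 TPM and rose by 1.49-fold (log2 fold change 0.58, standard error 0.12, adjusted p = 0.00925), but did not pass with DESeq2. *Eno3*, a further enolase gene outside the list that was named after its values were seen, was at 16.9 and 14.8 TPM at PD100. It fell from 1091 and 886 counts to 281 and 289 (log2 fold change -1.67, standard error 0.10, adjusted p = 0.00013). *Aldoc*, the brain aldolase (chromosome 11, 78322968 to 78327781, plus strand), fell from 535 and 443 counts to 226 and 196 (log2 fold change -1.10, standard error 0.10, adjusted p = 0.000427). Against these stood *Pgam1*, phosphoglycerate mutase, with 36653 and 34575 counts at PD100 against 30587 and 28380 at PD800 (log2 fold change -0.16, adjusted p = 0.222), *Eno1*, the main enolase (0.18, adjusted p = 0.166), and *Pkm*, pyruvate kinase (0.22, adjusted p = 0.22), none of which passed. On log2(TPM + 1) *Eno1* (-0.05) and *Pkm* (-0.02) had the opposite sign, on a scale whose median over all genes was -0.12.

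**Figure D2:**
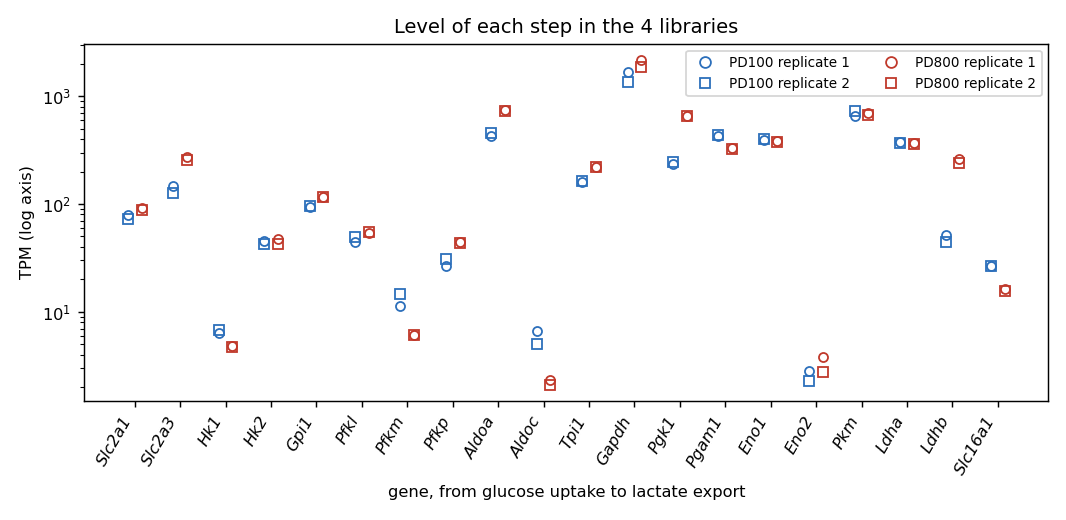
TPM on a log axis of 20 genes from glucose uptake to lactate export, in the 2 PD100 (blue) and 2 PD800 (red) libraries, with circles for replicate 1 and squares for replicate 2. *Ldhb* and *Pgk1* show the widest gap between blue and red among the genes that were higher, while *Pkm*, *Ldha* and *Eno1* lie at about the same level in both groups.

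A sum was taken over the 15 genes of the list for the 10 enzymatic steps. It leaves out genes outside the list, such as *Eno3* and *Eno1b*, a near-identical copy of *Eno1*. The sum was 4203 and 4023 TPM at PD100 against 5445 and 5124 TPM at PD800, a ratio of 1.28 (between 1.22 and 1.35 over single pairs of libraries). With TPM rescaled over protein-coding nuclear genes alone, which leaves out mitochondrial, small RNA and all other non-coding genes, the ratio was 1.51.

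The largest change of the list was in lactate dehydrogenase, whose subunits are encoded by *Ldha* and *Ldhb*. *Ldhb*, the heart-type subunit, which favours the oxidation of lactate to pyruvate (chromosome 6, 142490249 to 142507957, minus strand), had 2069 and 2018 counts at PD100 against 12017 and 11125 at PD800. *Ldhb* thus rose 6.09-fold (log2 fold change 2.61, standard error 0.11, adjusted p = 4.96e-05), with CPM of 51.2 and 60.4 against 334 and 346. *Ldha*, the muscle-type subunit, which favours lactate production, had 27013 and 24852 counts against 28819 and 26588 (log2 fold change 0.20, standard error 0.09, adjusted p = 0.119). *Ldhb* therefore made up 12.1% and 10.7% of the TPM of both genes at PD100 against 41.2% and 40.1% at PD800.

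Shares within other families, which do not depend on the scaling of libraries, moved as follows. *Slc2a3* went as a share of its pair from 64.2% ± 0.65 to 74.7% ± 0.406 (SD, n = 2). *Pfkm* went from 14.5% ± 1.21 to 5.80% ± 0.00743 and *Pfkp* from 32.5% ± 0.424 to 42.1% ± 0.824 of phosphofructokinase, while *Pfkl* was at 53.0% and 52.1%. *Aldoc* was 1.52% and 1.08% of its pair at PD100 and 0.318% and 0.287% at PD800. *Hk2* was 87.0% ± 1.01 and 90.3% ± 0.627 of its pair. These shares were not tested.

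**Figure D3:**
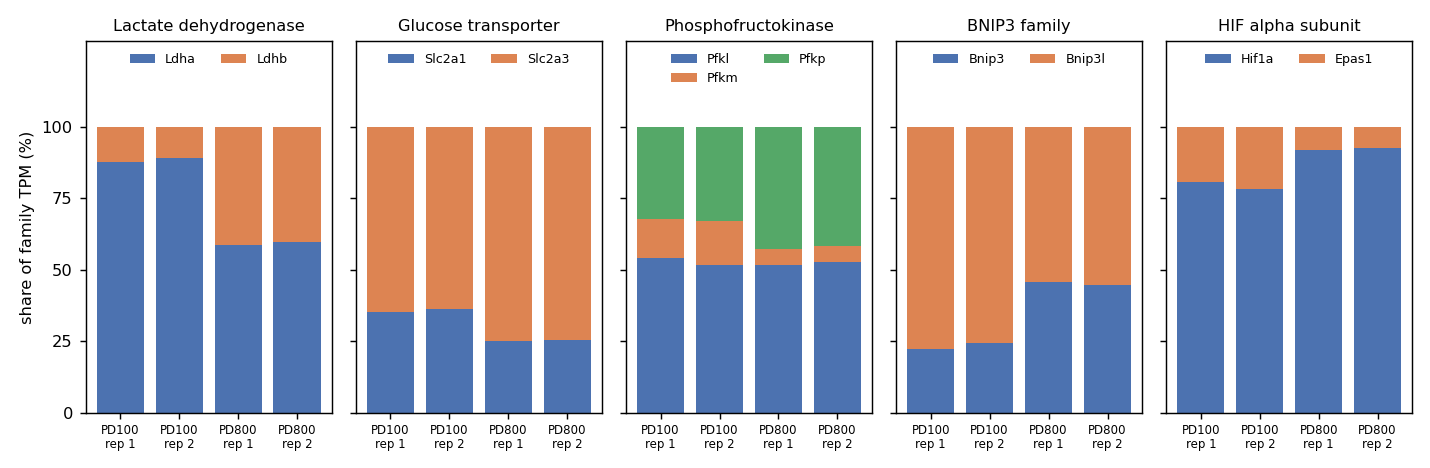
Share of the family's summed TPM, in percent, taken by each member in each of the 4 libraries, for lactate dehydrogenase, glucose transporters, phosphofructokinase, the BNIP3 family and the HIF alpha subunits. Replicates lie within a few points of each other, and *Ldhb* (orange, first panel) goes from 11.4% to 40.6% on average.

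The 3 genes of the list that belong to pyruvate dehydrogenase did not pass. *Pdk1* and *Pdk3* encode kinases that switch off pyruvate dehydrogenase, and *Pdha1* its catalytic alpha subunit. Their log2 fold changes were 0.09 (standard error 0.07, adjusted p = 0.325), -0.05 (standard error 0.08, adjusted p = 0.656) and 0.13 (standard error 0.08, adjusted p = 0.231). *Pdk1* had 5946 and 5028 counts against 5664 and 5149, and its sign, like that of *Pdha1*, turned on log2(TPM + 1) to -0.36 and -0.09.

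In the group of HIF factors and their control the genes that passed were lower. They were *Epas1*, *Egln3* and *Mxi1*. *Epas1*, which encodes HIF-2 alpha (chromosome 17, 86753700 to 86833410, plus strand), had 1723 and 1487 counts at PD100 against 570 and 490 at PD800. That is 43.6 ± 1.32 CPM against 15.5 ± 0.43 CPM (SD, n = 2), or 2.80-fold lower (log2 fold change -1.49, standard error 0.08, adjusted p = 9.22e-05). *Hif1a*, encoding HIF-1 alpha, had 5576 and 4172 counts against 5277 and 4680 and did not pass (log2 fold change 0.15, standard error 0.08, adjusted p = 0.175, and -0.10 on log2(TPM + 1)), so that *Epas1* went from 20.4% ± 1.64 to 7.66% ± 0.327 of the TPM of both alpha subunits (SD, n = 2). *Egln3*, a prolyl hydroxylase that HIF itself induces, fell from 297 and 263 counts to 157 and 140 (log2 fold change -0.80, standard error 0.12, adjusted p = 0.00337). *Mxi1*, a MYC antagonist and HIF target, fell from 1082 and 858 counts to 493 and 419 (log2 fold change -0.97, standard error 0.08, adjusted p = 0.000417). *Vhl*, the ubiquitin ligase subunit that removes hydroxylated HIF, had 683 and 707 counts against 898 and 876 (log2 fold change 0.46, adjusted p = 0.0286). HIF is controlled mainly at the protein level, and these data hold RNA.

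Of the remaining 5 hypoxia response genes 1 was higher, 1 lower and 3 did not pass. These counts lie near the shares of all genes tested, 13.1% higher and 15.4% lower. *Bnip3*, a mitophagy receptor of the outer mitochondrial membrane, rose from 1180 and 1159 counts to 2167 and 1945 (log2 fold change 0.92, standard error 0.10, adjusted p = 0.000981). Its paralogue *Bnip3l* had 3774 and 2831 counts against 3007 and 2593 (log2 fold change -0.12, adjusted p = 0.289), and *Bnip3* took 22.4% and 24.5% of the TPM of the pair at PD100 against 45.6% and 44.6% at PD800. With limma on log2(TPM + 0.1) *Bnip3l* passed, at -0.74. *Ndrg1*, a stress-induced gene, fell from 3.24 and 2.83 TPM to 1.75 and 1.85 TPM (log2 fold change -0.56, standard error 0.10, adjusted p = 0.00683), which did not pass with DESeq2. *Ankrd37*, a HIF target, had 114 and 128 counts against 68.7 and 72.9 (log2 fold change -0.66, adjusted p = 0.0561). *Car9*, carbonic anhydrase 9 and a common marker of hypoxia, was barely detected, with 24 and 12 counts against 25.2 and 19.4, and its groups overlapped (log2 fold change 0.41, standard error 0.35, adjusted p = 0.385).

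Other genes of the same pathways, 122 in lists that do not include the 35, had 112 tested, of which 11 were higher (9.82%, against 13.1% of all genes tested) and 36 lower (32.1%, against 15.4%). Of these, 4 were called higher (3.57%, against 6.28%) and 22 called lower (19.6%, against 8.81%). Without PD800 replicates 1 or 2, 6 and 7 of them were higher and 19 and 21 lower, and without PD100 replicates 1 or 2, 18 and 20 were higher. Among 14 further isozymes, 10 were tested, none was higher and 4 were lower, and *Hkdc1*, a hexokinase-like gene, went from 327 and 404 counts to 1 and 3, at least 114-fold lower when its mean PD100 level is set against the mean limit of 3 counts in the PD800 libraries. *Slc16a3*, the lactate exporter MCT4, rose from 4067 and 3242 counts to 6837 and 6469 (log2 fold change 0.98, adjusted p = 0.000271), but it lies 1.01 Mb from the last annotated base of chromosome 11 and its 40 nearest tested genes had a higher median of 1.48. *Tigar*, which lowers fructose 2,6-bisphosphate, rose (log2 fold change 1.19, adjusted p = 0.000202) and *Pfkfb2* fell (-0.67, adjusted p = 0.00262). Their 40 nearest tested genes had medians of 0.69 and -0.10. Among 12 genes around pyruvate dehydrogenase 1 was higher (*Pcx*, pyruvate carboxylase, 0.51, adjusted p = 0.00403) and 2 were lower (the largest fall being *Pdhb*, its beta subunit, -0.89, adjusted p = 0.000338, and the other *Pdp1*, a phosphatase that switches the complex on, -0.87, adjusted p = 0.00475), and the kinase genes *Pdk2* (0.10, adjusted p = 0.808) and *Pdk4* (0.29, adjusted p = 0.185) did not pass. The genes of the mitochondrial pyruvate carrier, *Mpc1* (0.86, adjusted p = 0.0556) and *Mpc2* (-0.16, adjusted p = 0.228), did not pass either, and they and *Pdp1* were named after their values were seen.

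In the side branches, 8 of the 29 genes tested passed in either direction (27.6%), which is near the 28.5% of all genes tested. In the pentose phosphate pathway 1 of 10 genes was higher (*Taldo1*, 0.63, adjusted p = 0.00103) and 3 were lower (the largest fall being *Pgls*, -0.72, adjusted p = 0.00462). Among genes of glycogen and other branches 2 of 14 tested were higher (*Pgm2* most, 0.69, adjusted p = 0.00973) and *Gpd2*, the mitochondrial glycerol phosphate dehydrogenase, was lower (-0.63, adjusted p = 0.00113). In gluconeogenesis *G6pc3* was lower (-1.31, adjusted p = 0.0025) and none of the 5 tested was higher.

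Further genes of the HIF system were taken from lists of factors and of targets. Of 15 genes for HIF factors and oxygen sensing none was higher and 4 were lower. That is 26.7% passing in either direction, near the 28.5% of all genes tested. The largest fall was that of *Cited2*, a competitor of HIF for its coactivator (1857 and 1104 counts against 593 and 514, log2 fold change -1.28, adjusted p = 0.00158, neighbours at -0.99). *Egln1*, the main prolyl hydroxylase, fell from 589 and 495 counts to 219 and 202 (log2 fold change -1.25, standard error 0.09, adjusted p = 0.000264). It lies 4.33 Mb from the end of chromosome 8, and the median of its 40 nearest tested genes was -1.30, about the same as its own. *Arnt*, the shared partner of the alpha subunits, had 0.27 (adjusted p = 0.053). Of 39 other hypoxia response targets 38 were tested, 5 were higher and 19 lower (against 13.1% and 15.4% of all genes tested), 3 were called higher and 14 called lower (against 6.28% and 8.81%), and the median log2 fold change was -0.58. *Vegfa*, the angiogenic factor often read as a sign of hypoxia, fell from 617 and 517 counts to 334 and 308 (log2 fold change -0.70, standard error 0.09, adjusted p = 0.00155, neighbours at 0.12). *Loxl2*, a collagen cross-linking enzyme, had the largest fall, from 4022 and 3276 counts to 267 and 231 (log2 fold change -3.76, standard error 0.08, adjusted p = 3.03e-05, neighbours at -0.98). *Narf* had the largest rise, from 956 and 776 counts to 3278 and 2950 (log2 fold change 1.96, standard error 0.07, adjusted p = 4.88e-05), beside a median of 1.49 for its 40 nearest tested genes. Chosen after their values were seen, the collagen prolyl hydroxylase genes *P4ha1* (-2.44, adjusted p = 4.88e-05) and *P4ha2* (-2.96, adjusted p = 4.51e-05) also fell, while *Kdm3a*, a histone demethylase (1.15, adjusted p = 0.000156), and *Ak4*, a mitochondrial adenylate kinase (1.36, adjusted p = 8.63e-05), rose.

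**Figure D4:**
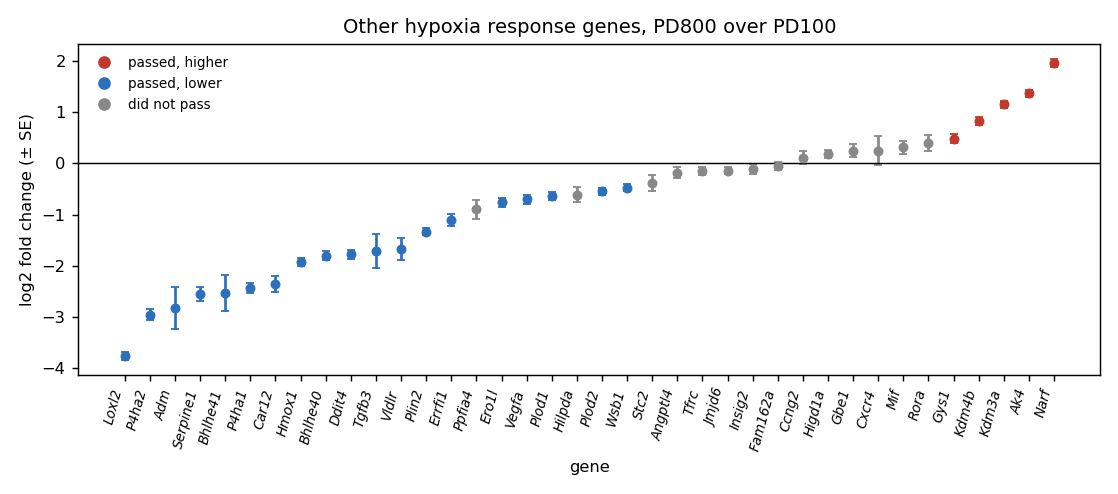
Log2 fold change of PD800 over PD100 with its standard error for the 38 tested genes of the list of other hypoxia response targets, in order of size, coloured by whether they passed. Of these, 19 were lower (blue), 5 higher (red) and 14 did not pass (grey).

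Markers of other cell types were also lower in PD800 cells, and their part in the falls of hypoxia response and glycolysis genes was not tested. Of all genes tested, 15.4% were lower. Of 18 primitive endoderm markers 16 were tested and 15 were lower, and their summed level went from 594 to 596 TPM in the PD100 libraries to 51.7 to 53.4 TPM in the PD800 libraries, with *Sparc* the highest (222 and 194 TPM against 27.3 and 26.5 TPM). The markers not tested were *Afp* and *Ttr*, with 3 and 4 counts each at PD100 and 0 at PD800. Of 12 feeder fibroblast markers 11 were tested and 7 were lower, with a summed level of 19.6 to 20.5 TPM at PD100 and 6.90 to 7.23 TPM at PD800, with *S100a4* the highest (5.43 and 4.45 TPM against 2.62 and 2.25 TPM) and *Lum* at 0 counts in all libraries except 1 count in PD800 replicate 2. In bulk RNA, fewer cells of a type and less RNA per cell cannot be told apart.

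The chromosomal neighbours of several of these genes moved with them. For each gene, the median log2 fold change of the 40 nearest tested genes on its chromosome was computed as a measure of its neighbourhood. For the 11 genes that were higher the median of these values was 0.53, beside a median of 0.85 for the genes themselves, and *Tpi1*, *Gapdh* and *Eno2* on chromosome 6 lay within 0.2 of their neighbours (0.64, 0.56 and 0.64). *Ldhb*, also on chromosome 6 and 7.08 Mb from its last annotated base, had neighbours at 0.98 and exceeded them by 1.63, and *Pgk1* exceeded its neighbours (0.16) by 1.51. *Slc2a3* (neighbours at 0.51), *Aldoa* (0.53) and *Bnip3* (0.58, 6.41 Mb from the end of chromosome 7) exceeded theirs by 0.67, 0.45 and 0.34. Of the 8 genes that were lower none lay within 0.2 of its neighbours, and the differences ran from -1.08 for *Slc16a1*, whose neighbours were at 0.57, to -0.33 for *Ndrg1*. *Epas1* (neighbours at -0.84) and *Mxi1* (-0.55) lay 8.04 and 7.92 Mb from the ends of chromosomes 17 and 19, in neighbourhoods that were lower as well, and *Pfkm* (neighbours at -0.19) lay 5.77 Mb from the end of chromosome 15. The study describes copy-number changes near chromosome ends in post-ALT cells, and the part of copy number in these values was not tested.

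**Figure D5:**
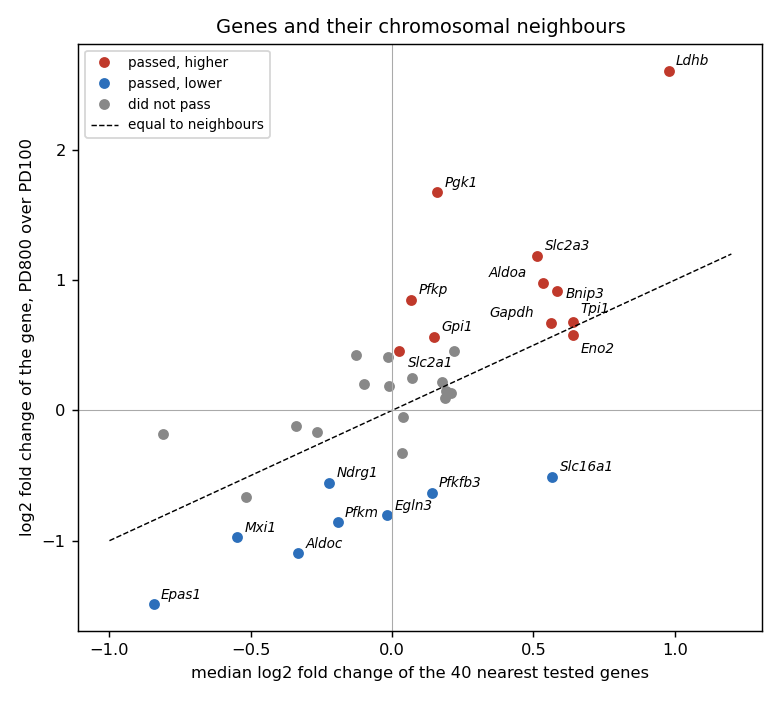
Log2 fold change of each of the 35 genes (vertical axis) against the median of the 40 nearest tested genes on its chromosome (horizontal axis), coloured by whether the gene passed, with a dashed line where both are equal. *Ldhb* and *Pgk1* lie 1.63 and 1.51 above the line, while *Tpi1*, *Gapdh* and *Eno2* lie on or near it.

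Several glycolytic genes have near-identical copies between which RSEM divides reads, and their values are uncertain to that extent. *Eno1b*, 99.5% identical to *Eno1*, was given 18129 and 18476 counts at PD100 against 18658 and 17802 at PD800, and all copies of *Eno1* took 33.8% to 35.5% of the sum. *Gapdh* had 203 copies, 193 of them pseudogenes, with 3.02% to 4.24% of the sum. *Gm5537*, a pseudogene whose transcript is 100.0% identical to *Pgk1*, rose with it from 1022 and 1353 counts to 3239 and 3169. When copies were summed with their gene, all 35 genes stayed on the same side of the threshold. The construct that targeted *Terc* carried a neomycin gene under the name PGK-neo, and whether reads of such a sequence were counted with *Pgk1* was not tested.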

How the data were processed

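RNA of PD100 and PD800 DKO741 cells (2 libraries each, grouped by the population doubling in their titles) was measured. Per the submitters' processing notes the reads were mapped to mm10 by STAR 2.5.3a, and the authors deposited RSEM 1.3.0 expected counts, unscaled for depth, and TPM values, scaled for length and library. The labels name total RNA, the study mRNA, and the annotation release is not given in the sources used here. FPKM values were not used. The 53379 gene identifiers were matched to GENCODE M21 (GRCm38), which held 53274.

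Expected counts were rounded and tested with edgeR 4.0.16 under R 4.3.3 (TMM, quasi-likelihood test, filterByExpr at 10 counts, Benjamini-Hochberg adjustment, adjusted p under 0.01). Copies were transcripts at least 90% identical over at least 50% of the shorter one (blastn 2.17.0). Promoters were those of RefSeq. The edgeR procedure was also run on simulated counts in which far fewer genes changed than passed here. That run cannot show how the procedure performs on these data. Between replicates, counts varied more than sampling gives (chi-square per degree of freedom 65.3 in PD100 and 10.1 in PD800, common dispersion 0.0136), and p-values measure only the spread between these samples.

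Alternatives were DESeq2 1.42.0, its size factors, upper-quartile factors, protein-coding nuclear genes, other filters and thresholds, a replicate block, limma 3.58.1 on log2(TPM + 1) and log2(TPM + 0.1), summed copies and each library left out. Members and lists were chosen with earlier results of these data known. All 35 members are named, and of each other list the largest rise and fall among genes that passed with a mean of at least 5 CPM, plus *Vegfa*, *Egln1*, *Arnt*, *Slc16a3*, *Pdk2* and *Pdk4*, while markers are named by their highest gene and those at 0.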

Additional observations from a re-analysis of the deposited data

How the results depend on the processing

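With DESeq2, other size factors, other filters, summed copies or protein-coding nuclear genes, the counts of the 35 genes that passed or were called stayed within 1.5 times the reported ones. With limma on the TPM scales log2(TPM + 1) and log2(TPM + 0.1), the number passing higher was 5 and 5 in place of 11, and the number called lower was 4 on log2(TPM + 0.1) in place of 2. Leaving out each library in turn gave 6 to 17 passing higher, 3 to 10 passing lower, 3 to 5 called higher and 2 to 3 called lower. Over the other pathway lists, the 11 passing higher became 18 with no filter, 18 at an adjusted p under 0.05, 5 and 5 with limma on both TPM scales, and 6 to 20 with a library left out, the 36 passing lower became 19 to 44 with a library left out, and the 4 called higher became 1 on log2(TPM + 1) and 2 on log2(TPM + 0.1). The summed TPM ratio went from 1.28 to 1.51 over protein-coding nuclear genes. A lone library left in a group was assumed to vary like the other group.

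Signs turned for genes that had not passed. On log2(TPM + 1) and log2(TPM + 0.1), the log2 fold changes were -0.050 and -0.050 for *Eno1*, -0.021 and -0.021 for *Pkm*, -0.027 and -0.027 for *Ldha*, -0.36 and -0.37 for *Pdk1*, -0.086 and -0.088 for *Pdha1*, and -0.10 and -0.10 for *Hif1a*. The median over all genes was -0.12 and -0.21 on these scales, and relative to it *Pdk1* alone of these 6 genes stayed negative (-0.24 and -0.16). With a library left out, *Pdk3* ran from -0.11 without PD100 replicate 2 to 0.000921 without PD100 replicate 1, and its share of the *Pdk1* and *Pdk3* pair, which by TPM was 1.01 points higher at PD800, moved by -1.27 points when CPM, which is not scaled for length, was used instead. The cause was not tested.

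The replicate number shared by libraries is not labelled as a shared culture or day, and the 2 pairs deviated together with a correlation of 0.265 across genes. Taking that number as a block (replicate block), 13 of the 35 genes passed higher and 8 lower, with 3 called higher and 2 called lower, and over the other lists 17 passed higher. *Pfkl* and *Vhl* were the genes gained.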
